A study of Homo sapiens with 4 samples.

Results

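The repair genes described here are 37 genes of homologous recombination and the Fanconi anaemia pathway, chosen by name: every probe whose gene symbol in the authors' annotated table is on the list. These 37 of 34755 gene symbols are measured by 57 of the 58201 different probes on each array. SUM149 is a cell line from an inflammatory breast cancer that carries a truncating mutation of BRCA1. Its cells were left to attach for a day and then either left untreated or given 2.5 uM of Ricolinostat (ACY1215), an inhibitor of the cytoplasmic deacetylase HDAC6, for 3, 6 or 12 hours. RNA was measured on 4 two-colour Agilent arrays, with 1 array for each of the 4 conditions and the same cell line in all, so no condition has a replicate and no test between conditions was made. The sample was labelled with Cy5, against a reference in Cy3 shared by all arrays. No array of vehicle-treated cells was used here, so treatment and time since plating cannot be told apart.

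Homologous recombination repairs a broken chromosome from the sister copy. The MRE11A-RAD50-NBN complex finds the break, ATM, ATR, CHEK1 and CHEK2 carry the alarm to the cell cycle, nucleases such as EXO1 expose single strands, and BRCA1, PALB2 and BRCA2 prepare them for the search of the sister copy. The Fanconi core complex marks FANCD2 and FANCI with ubiquitin where the strands are crosslinked and hands the lesion to the same machinery. Cells with mutant BRCA1 are known for defective recombination and for their need of PARP1. Many of these genes are transcribed mainly in cycling cells, and in bulk RNA fewer cells in a phase and less RNA per cell cannot be told apart.

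A value below is the log2 ratio of Cy5 over Cy3 on 1 array, and a change is that ratio minus the ratio on the untreated array, in which the common reference cancels. Where a gene has several probes, it is represented by the probe brightest in Cy3 on average over the arrays. A change counts as past 1.5-fold when its log2 size reaches 0.58, and it is read only where Cy5 and Cy3 were both well above background on that array and on the untreated one. Repeated spots give the only error there is: the log2 change had an SD between spots of 0.17 (3 hours, 159 probes), 0.12 (6 hours, 201 probes) and 0.12 (12 hours, 211 probes), over probes with at least 9 spots. This SD covers the array surface and not the culture or the labelling.

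The label of the cells was checked against fixed markers. All 5 epithelial and all 5 basal mammary markers were well above background in Cy5 on every array, as were all 4 endothelial markers, all 4 leukocyte markers found on the array and, depending on the array, 3 to 5 of the 6 fibroblast markers. COL3A1, a collagen of fibroblasts, was not above background in untreated cells. Summed processed Cy5 signals ran from 265000 units in untreated cells to 398000 at 12 hours for the epithelial list. Between the same arrays, 3 basal genes valued on all arrays ran from 39800 to 56200 and the fibroblast list from 1550 to 1950. The endothelial list ran from 1010 to 957 and the leukocyte list from 2830 to 4240. The part of other cell types in the results was not tested. The reference is labelled as a pool of the SUM149 samples, yet for 163 genes the lowest Cy3 signal of the arrays exceeded the highest Cy5 signal by 8-fold or more after background correction, and 0 of them are members. The ratio on a single array is not read as a level relative to SUM149. Areas of damage held 3.25% of spots on the untreated and 4.65% on the 3-hour array, compared with 0.248% at 6 hours and 0 at 12 hours. The probes that stand for 4 members lay in them, FANCL on the untreated array and ATR, CLSPN and FANCC on the 3-hour array, as did further probes of PARP1 (untreated) and CHEK2 (3 hours) and some spots of RAD50 (3 hours).

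In untreated SUM149 cells the probe that stands for the gene was well above background in Cy5 for all 37 members, where it was for 64.2% of all genes. Of the 57 member probes, 55 were so in both channels on all arrays, and the exceptions were a further probe each of PARP1 and RAD51B. Of the 37 genes, 24 have 1 probe and 13 have several. The spot of FANCL was an outlier on the untreated array and was set aside, which leaves 36 members with a change. The second FANCL probe was measured throughout and had changes of 0.10, 0.14 and 0.07 at 3, 6 and 12 hours. BRCA1, the gene mutated in this line, was well above background on all 4 arrays, and which part of its transcript the probe reads was not analysed here.

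The members moved in both directions. At 3 hours 3 of 36 were past 1.5-fold higher and 1 lower, where 6.88% of 20764 genes were higher and 1.96% lower. At 6 hours 4 were higher and 2 lower, where 9.41% of 20340 genes were higher and 4.42% lower. At 12 hours 1 was higher and 5 were lower, a share of 13.9% lower where 5.12% of 20477 genes were lower and 8.1% higher. The median change of the members passed from 0.05 at 3 hours to -0.05 at 6 hours and -0.11 at 12 hours, beside 0.0075, 0.016 and 0.014 for all genes. Below 0 lay 14 members at 3 hours (38.9%, where 48.6% of all genes did), 19 at 6 hours (52.8%, where 47.2% did) and 24 at 12 hours (66.7%, where 47.5% did). In all, 10 members passed 1.5-fold at 1 time or more, which is 27.8% of the members, where 20.1% of all genes did. The sign of a change was the same under this and 6 other scalings of the arrays for 21, 30 and 28 of the 36 members in order of time. The 8 members with both signs at 12 hours were ATM, BARD1, BRIP1, CHEK2, FANCG, MRE11A, RAD51C and RAD54B.

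**Figure D1:**
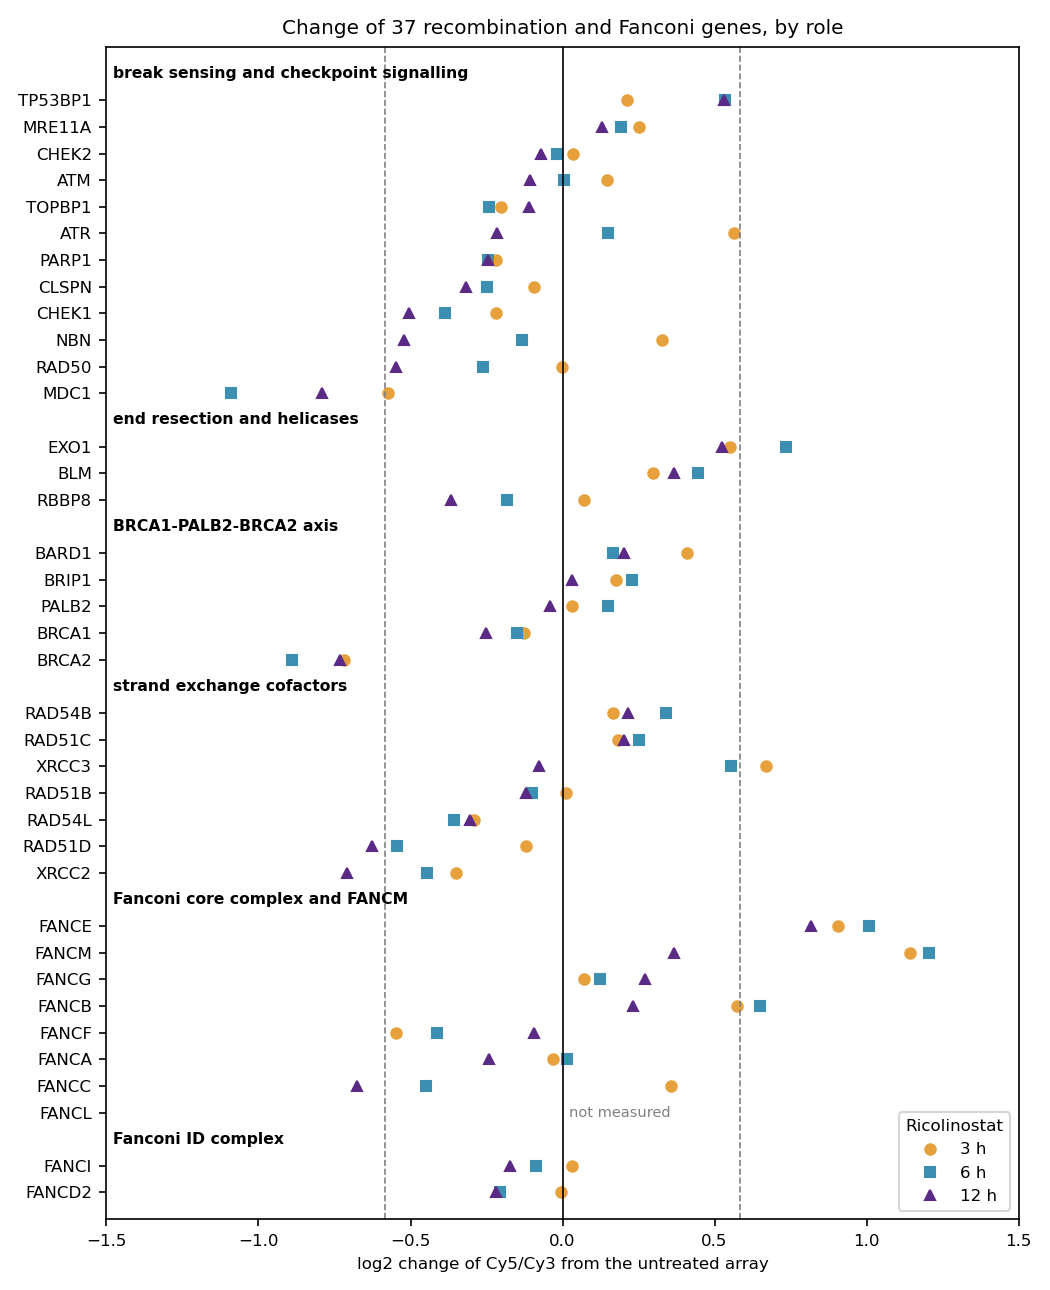
Log2 change of Cy5/Cy3 from the untreated array for each member (rows, grouped by role) at 3, 6 and 12 hours, 1 array each; dashed lines mark 1.5-fold. Points of FANCM and FANCE lie farthest to the right, with highest values of 1.21 and 1.01 at 6 hours, and those of MDC1 and BRCA2 farthest to the left, at -1.09 and -0.89 at 6 hours, and FANCL has no value.

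**Figure D2:**
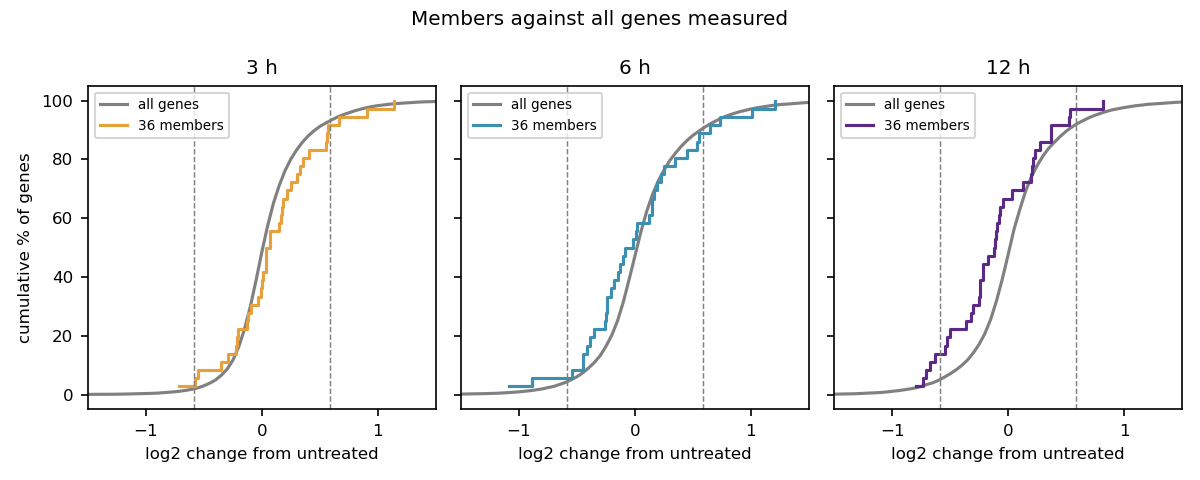
Cumulative percentage of genes (vertical axis) at or below a log2 change from untreated (horizontal axis) for all genes measured (grey) and the 36 members (coloured) at each time, with dashed lines at 1.5-fold. The member curve moves to the left of the grey curve by 12 hours, where 66.7% of members and 47.5% of all genes lie below 0.

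Promoters are shown for the 3 members lowest at 12 hours, for the 3 highest at 6 hours, and for FANCC, chosen after its letters were seen, which alone among the members past 1.5-fold holds an E2F word. RefSeq's table (GRCh38.p14) holds a promoter for 34 of the 37 genes. The 250 bases upstream of the gene start were searched on both strands for words of the E2F site (TTTCCCGC, TTTGGCGC, TTTCGCGC and TTTGCCGC), for CCAAT and for the cell cycle element CHR (TTTGAA and TTCGAA). No matches overlapped in the member promoters. An E2F word was found in 2 of 34 member promoters, FANCA and FANCC, or 5.88%, where 3.72% of 15843 protein-coding promoters hold one. CCAAT was found in 15 of 34, or 44.1%, where 34.5% of all hold it, and a CHR word in 4 of 34, or 11.8%, where 11.9% hold one. The lowest are MDC1 (chr6:30717282-30717531, minus strand), BRCA2 (chr13:32315258-32315507, plus strand) and XRCC2 (chr7:152676142-152676391, minus strand), and the highest FANCM (chr14:45135680-45135929, plus strand), FANCE (chr6:35452088-35452337, plus strand) and EXO1 (chr1:241847954-241848203, plus strand). FANCC (chr9:95317710-95317959, minus strand) was past 1.5-fold lower at 12 hours. All are written 5′ to 3′ towards the gene with every match in capitals.
MDC1: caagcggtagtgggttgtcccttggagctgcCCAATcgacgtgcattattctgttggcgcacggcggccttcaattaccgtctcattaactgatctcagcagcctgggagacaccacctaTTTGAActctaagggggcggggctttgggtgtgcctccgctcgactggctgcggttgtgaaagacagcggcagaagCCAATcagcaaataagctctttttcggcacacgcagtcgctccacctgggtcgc
BRCA2: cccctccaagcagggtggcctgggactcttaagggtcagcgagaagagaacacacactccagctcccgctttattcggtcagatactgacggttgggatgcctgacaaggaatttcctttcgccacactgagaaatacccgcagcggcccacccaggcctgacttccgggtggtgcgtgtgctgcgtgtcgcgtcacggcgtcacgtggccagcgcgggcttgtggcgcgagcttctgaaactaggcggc
XRCC2: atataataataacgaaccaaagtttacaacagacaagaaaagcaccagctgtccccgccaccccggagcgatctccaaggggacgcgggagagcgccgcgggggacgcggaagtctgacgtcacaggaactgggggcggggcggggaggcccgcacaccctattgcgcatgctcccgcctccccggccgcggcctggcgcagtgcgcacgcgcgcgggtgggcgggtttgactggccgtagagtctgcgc
FANCM: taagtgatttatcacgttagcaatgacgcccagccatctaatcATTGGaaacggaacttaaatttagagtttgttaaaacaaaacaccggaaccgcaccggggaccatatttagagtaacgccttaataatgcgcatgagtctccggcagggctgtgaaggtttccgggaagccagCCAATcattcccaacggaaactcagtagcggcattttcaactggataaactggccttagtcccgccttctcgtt
FANCE: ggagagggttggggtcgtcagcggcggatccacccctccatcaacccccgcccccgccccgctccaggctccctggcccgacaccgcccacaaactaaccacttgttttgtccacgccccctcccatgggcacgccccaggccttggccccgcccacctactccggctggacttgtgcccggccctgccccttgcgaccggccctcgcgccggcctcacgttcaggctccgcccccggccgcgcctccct
EXO1: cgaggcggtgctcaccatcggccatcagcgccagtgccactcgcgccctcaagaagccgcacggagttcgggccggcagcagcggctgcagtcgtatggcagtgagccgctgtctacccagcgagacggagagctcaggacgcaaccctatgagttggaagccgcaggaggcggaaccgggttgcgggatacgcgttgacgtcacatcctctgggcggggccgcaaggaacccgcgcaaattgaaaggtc
FANCC: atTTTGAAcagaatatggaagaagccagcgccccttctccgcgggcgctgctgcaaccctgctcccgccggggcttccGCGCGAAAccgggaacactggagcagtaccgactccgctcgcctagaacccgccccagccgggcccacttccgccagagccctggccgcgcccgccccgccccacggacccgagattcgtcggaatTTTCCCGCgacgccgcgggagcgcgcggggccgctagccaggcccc
BRCA2, XRCC2, FANCE and EXO1 hold no match of any word in this window. MDC1, which was lower, and FANCM, which was higher, hold 2 CCAAT words each. FANCC holds 2 E2F words, at 46 to 39 and at 172 to 165 bases upstream, and MDC1 and FANCC hold 1 CHR word each. These matches are descriptions of the letters and not of bound sites.

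The BRCA1-PALB2-BRCA2 axis split between its members. BRCA2, which binds single-stranded DNA at the break and whose promoter holds none of the searched words, had the lowest change of the members at 3 hours. Its log2 ratio was 1.35 in untreated cells and then 0.63, 0.46 and 0.62 at 3, 6 and 12 hours. All 3 treated arrays lay below the untreated one, with changes of -0.72, -0.89 and -0.73, and BRCA2 was 1.85-fold lower at 6 hours. Its processed Cy5 signal alone passed from 964 units to 663, 519 and 542. Under the other scalings the 12-hour change lay between -0.94 and -0.71, and the 3-hour change was -0.53 in the Cy5 channel alone, under 1.5-fold.

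BRCA1, the partner that recruits PALB2, was measured by a single probe in 10 spots, annotated to the NM_007300 transcript. The mean log2 ratio of its spots was -1.27 ± 0.14 (SD, n = 10 spots) in untreated cells. The treated means were -1.40 ± 0.10 (n = 10 spots), -1.42 ± 0.09 (n = 9 spots) and -1.53 ± 0.06 (n = 10 spots) in order of time. The spots of neighbouring arrays overlapped at every step. Taken spot by spot, the change at 12 hours was -0.25 ± 0.14 (SD, n = 10 spots), from -0.41 to -0.10, so every spot was lower while the change itself stayed under 1.5-fold. BARD1, which pairs with BRCA1 in a ubiquitin ligase, was higher by 0.41 at 3 hours and by 0.20 at 12 hours, where median centring turned it to -0.06. PALB2, the bridge between BRCA1 and BRCA2, had changes of 0.03, 0.15 and -0.04. BRIP1, a helicase that binds BRCA1, had changes of 0.18, 0.23 and 0.03, so at 12 hours both were within the SD between repeated spots. Of these 5 genes only BRCA2 was past 1.5-fold at any time, where 20.1% of all genes were past it at 1 time or more.

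**Figure D3:**
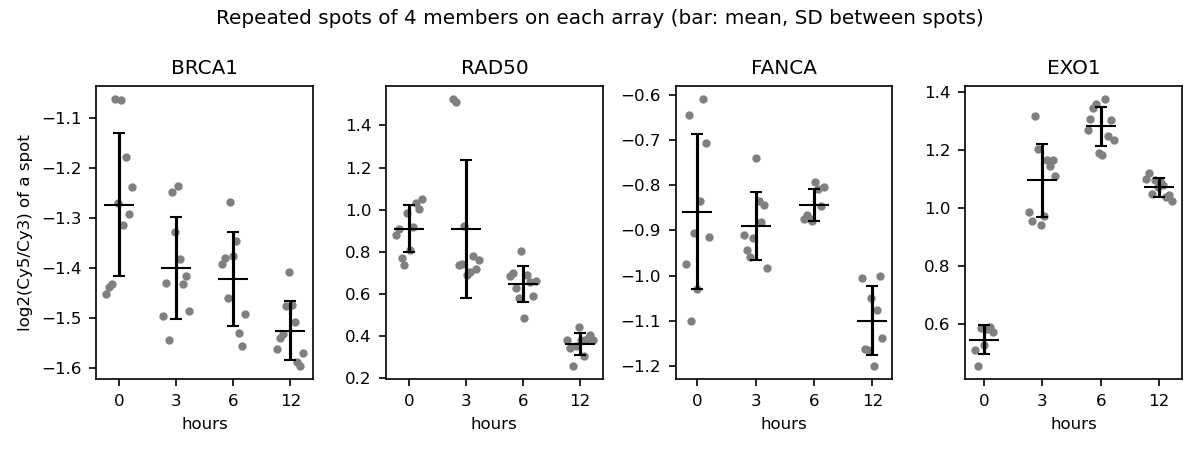
Log2 Cy5/Cy3 of each spot (grey) of the 4 members printed in 10 spots, at 0, 3, 6 and 12 hours, with the mean and the SD between spots; the vertical scale differs between panels and no bar is a biological error. BRCA1 passes from a mean of -1.27 to -1.53, RAD50 passes from 0.91 to 0.36 and EXO1 sits above its untreated spots at every treated time.

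Of the 12 break sensing and checkpoint genes, 10 lay below 0 at 12 hours (83.3%, where 47.5% of all genes did) and 1 was past 1.5-fold lower (where 5.12% were). The 10 include PARP1, whose probes disagree, and ATM and CHEK2, which had both signs among the scalings. MDC1, the scaffold that binds phosphorylated histone H2AX around a break, moved most. The untreated log2 ratio was 0.55, and the treated ones were -0.02, -0.54 and -0.24 in order of time. The changes were -0.57, -1.09 and -0.79, and at 6 hours it was the single member past 2-fold lower (1 of 36, where 0.939% of all genes were), at 2.13-fold. Its 6-hour change lay between -1.30 and -0.94 over all scalings.

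The MRE11A-RAD50-NBN complex had subunits on both sides of 0 at 12 hours. RAD50, its coiled-coil subunit, had a mean ratio of 0.91 ± 0.11 before treatment, then 0.91 ± 0.33, 0.65 ± 0.09 and 0.36 ± 0.05 at 3, 6 and 12 hours (SD, n = 10 spots each). The wide spread at 3 hours came with 2 spots in a damaged area, the highest at 1.52, and the median of the spots was 0.75. Every spot at 12 hours, from 0.26 to 0.44, lay below every untreated spot, from 0.74 to 1.05, and the change of -0.55 was 1.46-fold. NBN, the subunit that recruits ATM, passed from 0.43 to 0.75, 0.29 and -0.10, a 12-hour change of -0.52. MRE11A, the nuclease, stood at -0.37, -0.12, -0.18 and -0.24, so its 12-hour change of 0.13 was close to the SD between spots, and it was -0.13 in the Cy5 channel alone and -0.12 with median centring.

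Of the kinases, CHEK1, which holds the cell cycle when replication stalls, was lower at each time, with changes of -0.22, -0.39 and -0.50. CLSPN, the mediator that presents CHEK1 to ATR, had changes of -0.09, -0.25 and -0.32, the first from a damaged area and with both signs among the scalings. ATR had a change of 0.56 at 3 hours on a probe that lay in a damaged area there, and of 0.25 on its other probe. In the Cy5 channel alone the first was -0.61 at 3 hours. At 12 hours these 2 ATR probes were at -0.22 and 0.04. ATM had changes of 0.15, 0.0054 and -0.11, CHEK2 of 0.03, -0.02 and -0.07, and TOPBP1, the activator of ATR, of -0.20, -0.24 and -0.11. With the signals of Feature Extraction, the array software, ATM was at -0.62 at both 6 and 12 hours and CHEK2 at -1.19 at 3 hours. The other CHEK2 probes were at 0.38, -0.06 and 0.34 at 3 hours, the last from a damaged area. TP53BP1, which shields ends from resection, went the other way, from a ratio of -0.10 to 0.11, 0.43 and 0.43, so its change at 12 hours was 0.53. PARP1, which marks strand breaks with poly-ADP-ribose, cannot be given a direction: its 2 bright probes, both annotated to NM_001618, were at -0.25 and 0.37 at 12 hours, and the remaining probe was not well above background.

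Of the 3 end resection genes, EXO1 and BLM were higher at every treated time and RBBP8 was lower at 6 and 12 hours. EXO1, the long-range resection nuclease, had a mean ratio of 0.54 ± 0.05 (SD, n = 7 spots) in untreated cells, and of 1.09 ± 0.13, 1.28 ± 0.07 and 1.07 ± 0.03 (n = 10 spots each) at the treated times. No treated spot overlapped with an untreated one, and EXO1 was 1.67-fold higher at 6 hours. The call at 6 hours held under 6 of 6 other scalings, between 0.60 and 0.76. BLM, the helicase that works with it and that dissolves crossovers, was higher by 0.30, 0.45 and 0.37. At 12 hours BLM was at 0.04 with median centring and at 0.13 in the Cy5 channel alone. RBBP8, or CtIP, which starts resection with MRE11A, had changes of 0.07, -0.18 and -0.37.

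Among the cofactors of strand exchange, 7 genes, 5 lay below 0 at 12 hours (71.4%, where 47.5% of all genes did), among them XRCC3, whose probes differ. They assist the invasion of the sister copy, and of them XRCC2 and RAD51D ended lowest. These proteins bind each other in the complex of RAD51B, RAD51C, RAD51D and XRCC2. XRCC2 had ratios of -0.37, -0.72, -0.81 and -1.08 in untreated cells and at 3, 6 and 12 hours, a 12-hour change of -0.71 or 1.64-fold lower. RAD51D had ratios of 0.21, 0.09, -0.34 and -0.42, a 12-hour change of -0.63. The other probes of RAD51D were at -0.50 and -0.20 at 12 hours, so all 3 were lower and 1 was past 1.5-fold. RAD51C, which also sits in a complex with XRCC3, had changes of 0.18, 0.25 and 0.20 (-0.12 at 12 hours with median centring), and RAD51B of 0.01, -0.10 and -0.12. RAD54L, a motor that moves along DNA, had changes of -0.29, -0.36 and -0.31, whereas its relative RAD54B had 0.17, 0.34 and 0.22 (-0.07 at 12 hours with median centring). The other RAD54B probe was at 0.48, 0.72 and 0.26, past 1.5-fold higher at 6 hours.

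XRCC3 gave 2 answers. The probe with the higher Cy3 signal, annotated to the transcript ENST00000557439, had changes of 0.67, 0.55 and -0.08, and its 3-hour change turned to -0.13 in the Cy5 channel alone. Its untreated processed Cy5 signal, 155842 units, was the highest of the members, whose median was 1730, and what it reads was not analysed. The probe annotated to NM_001100119 had changes of -0.29, -0.50 and -0.51. Only the first is counted among the members past 1.5-fold at 3 hours, and no direction is given for the gene.

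The Fanconi core complex held the largest changes upward. FANCM, the translocase that anchors the complex on DNA, passed from an untreated ratio of 0.50 to 1.65, 1.71 and 0.87. Its changes of 1.14, 1.21 and 0.37 make it 2.31-fold higher at 6 hours and 1.29-fold higher at 12 hours. The 12-hour change of FANCM was 0.08 with median centring and 0.20 in the Cy5 channel alone. At 3 hours FANCM was the 1 member past 2-fold higher, where 1.69% of all genes were. FANCE, the subunit that contacts FANCD2, had ratios of -0.52, 0.39, 0.49 and 0.30. It stayed high, with changes of 0.91, 1.01 and 0.82, and was the 1 member past 1.5-fold higher at 12 hours. At 6 hours FANCM and FANCE were both past 2-fold higher, 2 of 36 where 2.82% of all genes were, and at 12 hours no member was past 2-fold either way (0 of 36, where 2.34% of all genes were higher and 1.12% lower). Their calls at 3 and 6 hours held under 6 of 6 other scalings. The 12-hour change of FANCE was 0.49 with median centring of the arrays, under 1.5-fold.

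FANCB, a scaffold of the core, passed from -0.22 to 0.36, 0.43 and 0.01, and so was higher by 0.57 and 0.65 at 3 and 6 hours and by 0.23 at 12 hours. Its 6-hour call held under 4 of 6 other scalings, with 0.49 in the Cy5 channel alone and 0.55 with median centring. FANCC ended lowest in the core. Its ratio was 1.05 in untreated cells and 0.60 and 0.37 at 6 and 12 hours, a 12-hour change of -0.68, and its other probe was at -0.19. The ratio of FANCC at 3 hours, 1.41, came from a damaged area, and the 3-hour change was 0.36 as a ratio but -1.44 in the Cy5 channel alone. FANCF, the adaptor that joins FANCM to the core, was lower early only: its changes were -0.55, -0.41 and -0.09 on 1 probe and -0.68, -0.45 and 0.07 on the other. FANCA, which binds FANCG, had mean ratios of -0.86 ± 0.17, -0.89 ± 0.08 (n = 9 spots each), -0.84 ± 0.04 and -1.10 ± 0.08 (n = 8 spots each), and its change at 12 hours, taken spot by spot, was -0.22 ± 0.16 (SD, n = 8 spots). FANCG had changes of 0.07, 0.12 and 0.27, and its sign at 12 hours turned to -0.09 with median centring. The substrates of the complex stayed under 1.5-fold, FANCD2 with changes of -0.0055, -0.21 and -0.22 and FANCI with 0.03, -0.09 and -0.17. The other FANCD2 probes were at -0.34 and 0.21 at 6 hours and at 0.01 and -0.13 at 12 hours, so their directions differ.

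**Figure D4:**
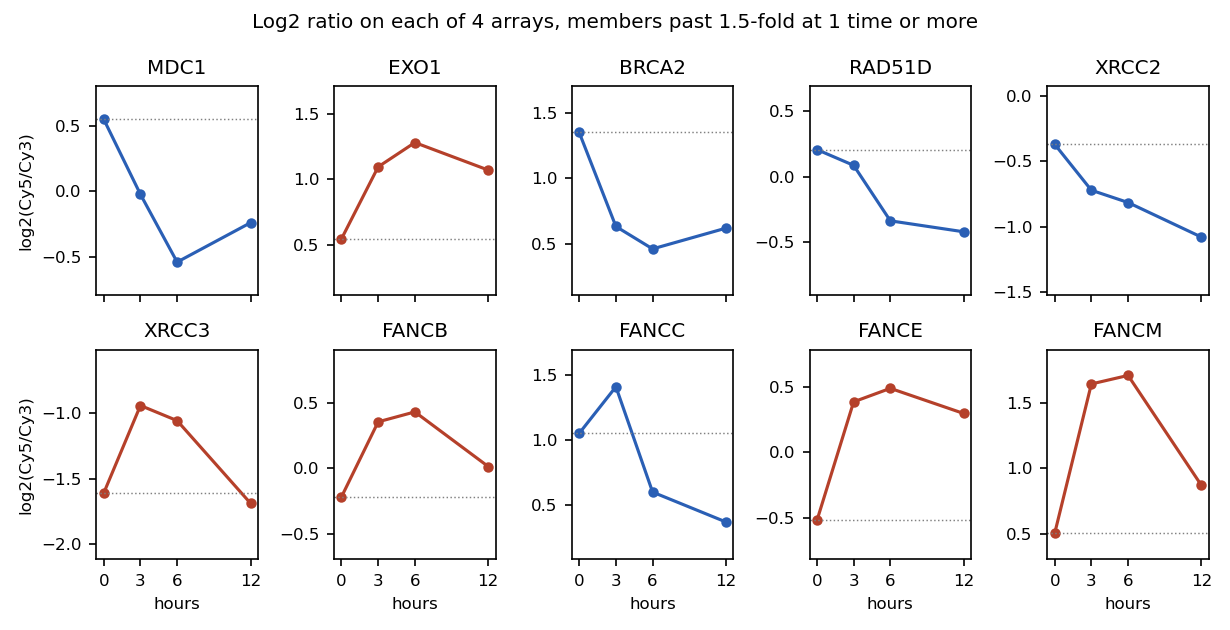
Log2 Cy5/Cy3 on the 4 arrays (0, 3, 6 and 12 hours, 1 array each, no error bar) for the 10 members past 1.5-fold at 1 time or more; red marks members above and blue members below the untreated array (dotted line) at 6 hours, and every panel spans the same height. FANCM, FANCE, FANCB and EXO1 are highest at 6 hours, while XRCC2, RAD51D and FANCC are lowest at 12 hours.

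Over the 3 treated arrays, a comparison whose values do not use the untreated one, 18 of 36 members had a lower ratio at each later time, where 22.4% of 19888 genes had. Genes were counted only where the untreated array also passed, which leaves out FANCL, at 0.0086, -0.20 and -0.28 on the treated arrays. This pattern was chosen after the values were seen and is read on the probe that stands for each gene. It held for 9 of the 12 sensing and checkpoint genes, namely ATM, ATR, CHEK1, CHEK2, CLSPN, MRE11A, NBN, PARP1 and RAD50, for 4 of the 7 cofactors of strand exchange, and for both FANCD2 and FANCI. In this count ATR, CLSPN and FANCC rest on 3-hour spots in damaged areas, as do 2 of the 10 spots of RAD50. ATM, FANCC, FANCD2, PARP1 and RAD51D each have another measured probe that did not follow the pattern. A fall of any size counts. From 6 to 12 hours the change passed from -0.244 to -0.246 for PARP1 and from -0.21 to -0.22 for FANCD2. It passed from -0.10 to -0.12 for RAD51B, from -0.02 to -0.07 for CHEK2 and from 0.19 to 0.13 for MRE11A. For CLSPN it passed from -0.25 to -0.32, for RAD51D from -0.54 to -0.63 and for FANCI from -0.09 to -0.17. For BRCA1 it passed from -0.15 to -0.25, for ATM from 0.0054 to -0.11 and for CHEK1 from -0.39 to -0.50. All these steps are smaller than the SD between spots of 0.12. Only FANCF and FANCG were higher at each later time, 2 of 36 where 22.6% of all genes were. Outside damaged areas it held for 15 of 33 members, or 45.5%, beside 21.2% of all genes. In the Cy5 channel alone it held for 16 members beside 25.3% of all genes, with Feature Extraction's own signals for 12 of 36 members beside 22.5%, and with median centring, which moves all genes down with time, for 31 members beside 57.9%.

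Probes of the same gene set a second limit. At 12 hours 11 members had several probes that passed, and in 6 of them all probes lay on the same side of 0. The range between probes had a median of 0.25, and in 5 of the 11 it was within 2 times the SD between spots. PARP1, XRCC3, FANCC and RAD51D had the widest ranges.

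**Figure D5:**
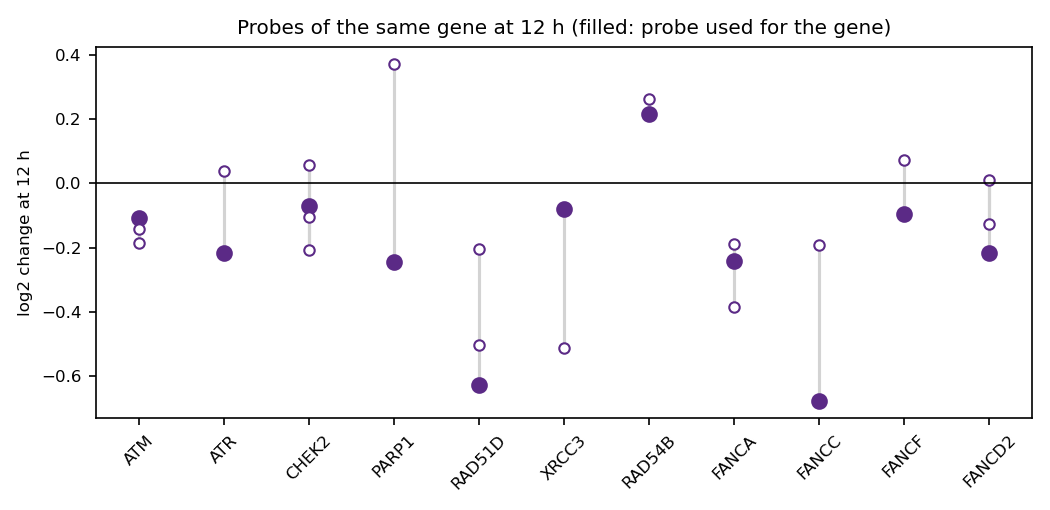
Log2 change at 12 hours (vertical axis) of each measured probe of the 11 members with several probes; the filled point is the probe that stands for the gene. The probes of ATM, FANCA, FANCC, RAD51D, RAD54B and XRCC3 lie on 1 side of 0, while those of PARP1 are at -0.25 and 0.37.

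Other genes of recombination and of the cell cycle were taken from lists written by name. At 12 hours 8.1% of all genes were past 1.5-fold higher and 5.12% lower. Of 51 other recombination and crosslink repair genes, 50 were measured at 12 hours, with a median change of 0.03, 3 past 1.5-fold higher (6%) and 1 lower (2%). TIMELESS, which keeps the replication fork together and aids CHEK1 signalling, was the lowest of them at -1.24, and SFR1, a recombination cofactor, the highest at 0.67, a value whose untreated spot lay in an area of damage. Of 42 replication and G1/S genes, all measured, the median at 12 hours was -0.18, with 3 past 1.5-fold higher (7.14%) and 6 lower (14.3%). Below 0 at 12 hours lay 29 of these genes (69%), beside 66.7% of the members and 47.5% of all genes. The lowest on this list was GINS3, a subunit of the replicative helicase, at -1.30, and the highest PRIM2, a primase subunit, at 0.65. A lower ratio at each later treated time was found in 15 of these 42 genes (35.7%) and in 12 of the 50 other recombination genes (24%). The same was found in 18 of the 36 members (50%) and in 22.4% of all genes. For end joining genes it was 6 of 16 (37.5%), and for mitosis and G2/M genes 5 of 31 (16.1%). The difference between lists was not tested.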

How the data were processed

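RNA of SUM149 cells was measured on 4 two-colour Agilent arrays of 62976 spots each, extracted with Feature Extraction 12.0.1.1. The authors deposited spot and local background intensities, with flags, and a log10 ratio of Cy5 over Cy3 from the software's processed signals. A table of log2 ratios that the authors deposited is normalized, in a way that is not given in the sources used here, and all its columns of sample values were used (0 left out).

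From the median intensities, background was corrected by normexp (offset 50), control spots were left out, outlier spots were set aside, and arrays were normalized by loess and Aquantile (R 4.3.3, limma 3.58.1). Repeated spots were averaged. The offset shrinks the changes of dim probes. Table and arrays were joined by row and column. The rest was computed in Python 3.11.15 with pandas 2.3.3, numpy 2.4.6, scipy 1.17.1 and matplotlib 3.10.9. Per array, Cy5 medians ran from 36 to 40 units (background 24), and 0 spots were saturated. With 1 array per condition no test was possible, so genes were counted past 1.5-fold and 2-fold, beside the share of all genes past the same fold. By rule all 37 members are named, and of other lists the lowest and highest gene at 12 hours. Another gene of the rule is not reported here. Members and lists were chosen with earlier results of these data known. Damage was called around a spot where 10% or more of its surrounding 13 rows by 7 columns were flagged or over 2-fold from the arrays' median in Cy3. The lower-at-each-time pattern was added after seeing the data. The steps were tested on simulated data with planted changes of 2-fold or more on spots that were not dim. Recovery of changes near 1.5-fold, or of changes on dim probes, was not tested. The 11 alternatives covered background, normalization, signal, the authors' table, the Cy5 channel alone, the probe, the filter, detection and damage.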

Additional observations from a re-analysis of the deposited data

Results flagged for a closer look

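The Cy3 reference of the FANCC probe on the 3-hour array lay 1.46 below the median of the other 3 arrays on the log2 scale (-1.46), a gap that chance passes in about 1 in 20 groups. It was the only 1 of 36 members with such a gap among the 4 arrays, and the spot lies in a damaged area, so the 3-hour ratio of FANCC rests on it.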

How the results depend on the processing

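Of 506 changes of single members set against an alternative, 399 moved by less than the SD between repeated spots. Of the members, 24 have 1 probe. For such a probe, where undamaged, the alternatives of probe, filter, detection and damage return the same value. Many of the 399 were thus fixed in advance and do not show that a change is robust. The 3-hour change of XRCC3, on the probe described, was -0.13 in the Cy5 channel alone. No paired analysis was possible because no condition was measured more than once, and no array could be left out. For values that moved, the cause was not tested. Low signal over background limits what dim probes show.

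In this paragraph the share of all genes past the same fold under the same setting follows each count in brackets. With median centring the median of the members was -0.19 at 6 hours and -0.43 at 12 hours, where all genes stood at -0.08 and -0.16. Past 1.5-fold were then 6 higher at 3 hours (9.48%), 7 lower at 6 hours (8.68%), and 0 higher (4.15%) and 12 lower (13.9%) at 12 hours. Lower at each later treated time were 31 members (57.9% of all genes). With Feature Extraction's own signals the 6-hour median was -0.18, with 3 lower at 3 hours (7.56%), 6 lower at 6 hours (11.3%) and 2 higher at 12 hours (13%). In the Cy5 channel alone 4 were lower at 3 hours (5.02%), 4 at 6 hours (6.52%) and 8 at 12 hours (7.28%), with 2 higher at 12 hours (7.48%). At 3 hours a normexp offset of 1 gave 6 higher (10.1%) and 3 lower (5.83%), no background subtraction 6 higher (8.68%) and 3 lower (3.14%), and the deposited normalized ratios 5 higher (8.21%) and 3 lower (4.92%). With the mean of all probes 2 were lower at 3 hours (1.71%) and 3 at 12 hours (4.55%).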

Other observations

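End joining, the repair route that needs no sister copy, was measured through 16 of 17 listed genes. Their median changes were 0.12, 0.08 and -0.03 in order of time. At 12 hours 1 was past 1.5-fold higher (6.25%, where 8.1% of all genes were) and 3 lower (18.8%, where 5.12% were). PRKDC, the catalytic subunit of the DNA-dependent protein kinase, had ratios of -0.17 in untreated cells and of 0.70, 0.72 and 0.43 at 3, 6 and 12 hours, and POLM, a gap-filling polymerase, was lowest at 12 hours with a change of -0.97. Of 32 mitosis and G2/M genes 31 were measured, with a median change of 0.04 at 12 hours, 4 past 1.5-fold higher (12.9%) and 1 lower (3.23%). NEK2, a centrosome kinase, was highest at 1.44, and FOXM1, a transcription factor of the mitotic programme, lowest at -0.68.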
